A study of Homo sapiens with 20 samples.

Results

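The genes described here are 3 NR4A nuclear receptors, NR4A1 (ENSG00000123358), NR4A2 (ENSG00000153234) and NR4A3 (ENSG00000119508), and 3 genes of the immediate early response (IER) group, IER2 (ENSG00000160888), IER3 (ENSG00000137331) and IER5 (ENSG00000162783). They are 6 of the 19962 genes of the count table and were taken by identifier. They were chosen on results of the same table, that is, on their counts across the 5 conditions. For that reason their levels and fold changes in it are given as a description, without p-values. The libraries come from PAR-CLIP of IGF2BP3 in HCT116, a human colorectal carcinoma line, here carrying a conditionally expressed OsTIR1 protein (genotype Tet-OsTIR1-PURO). In PAR-CLIP, cells take up 4-thiouridine, ultraviolet light joins it to bound protein, and sequencing shows the joined bases as T-to-C changes. All cells, controls included, grew with 100 µM 4-thiouridine for 15 h, and the light had a wavelength of 365 nm and a dose of 0.15 J/cm2.

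The 5 conditions were DMSO for 4 h, tunicamycin (TM, 5 µg/mL) for 1 h, TM for 4 h, PBS for 2 h, and arsenite (250 µM) for 2 h. DMSO was the control of both TM times and PBS the control of arsenite. As DMSO was given for 4 h, TM 1 h differs from it in the time since the addition too. The drug and that time cannot be told apart in the 1 h comparison. Each condition had 3 libraries made with an antibody to IGF2BP3 and 1 made with control IgG. The labels write arsenite in the sample titles and sodium arsenate in the protocol. They do not say whether libraries of a group came from separate cultures, so the spread between them may be technical.

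IGF2BP3 is an RNA-binding protein of the insulin-like growth factor 2 mRNA-binding family, found mainly in embryonic tissue and in tumours and known for its effects on the stability and translation of bound mRNA. NR4A receptors are transcription factors without a known physiological ligand whose activity follows their amount. Their genes, like those of the IER group, are switched on within minutes by growth factors, calcium and many stresses, and their mRNAs are short-lived. Tunicamycin blocks N-linked glycosylation and so stresses the endoplasmic reticulum, while arsenite is an oxidative stress that also damages proteins.

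The anti-IGF2BP3 libraries held 130478 to 1568406 counts and the IgG libraries 5981 to 17503. The clusters of crosslinked reads numbered 3579 to 63287 per anti-IGF2BP3 library and 33 to 180 per IgG library. Library names place replicates 1 and 2 of the DMSO and TM groups in one set, replicate 3 of those groups in another, and the PBS and arsenite libraries in a further one. As markers of the line, 6 of 8 colorectal epithelial genes had clusters (EPCAM in 13 and KRT8 in 14 of the 15 libraries), while CDH17 and VIL1 had none. None of the 3 T cell, 3 endothelial and 3 fibroblast markers had a cluster.

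The stretches of RNA most covered by clusters are shown for the 5 genes that had any, because the most crosslinked reads gathered over them. Each is the 30-base window, 5′ to 3′ on the transcribed strand, with the highest summed cluster reads over the 15 libraries, and capitals mark CAT, a short motif reported for the IGF2BP family.
NR4A1: cctgggaacacgtgtgcaCATgcgcactct
NR4A2: ttttggctccggggCATcctggatttagaa
NR4A3: ttaCATgtaactgttttggttgtgttctat
IER2: tactttcaCATtctcaagtttttctCATct
IER5: tgctcttctggaatgcaccactccttcccc
The windows lie, in hg38 coordinates, at chr12:52058951-52058980 on the plus strand for NR4A1, chr2:156325499-156325528 on the minus strand for NR4A2, chr9:99864723-99864752 on the plus strand for NR4A3, chr19:13154562-13154591 on the plus strand for IER2 and chr1:181090158-181090187 on the plus strand for IER5. They end 523, 1062, 2139, 320 and 2713 bases before the end of the RefSeq gene, in that order. Exon and UTR boundaries were not used here. The windows were picked by cluster reads and not by conversion positions, and clusters can be much wider, so a window does not place a crosslinked base. Single clusters spanned the whole NR4A1 window in 12 libraries, the NR4A2 window in 11, the IER2 window in all 15, the NR4A3 window in 3 and the IER5 window in 2. CAT stood in 4 of the 5 windows. It stood in 42.6% of the 223 central 30-base windows of clusters of these genes and in 55.5% of the 364271 such windows of all clusters. The other motifs counted went the other way. ACAC stood in 16.6% of the windows of these genes and 11.5% of all, and GGAC in 18.8% and 6.55%. Many of the 223 windows repeat the same site in several libraries, so the shares are a description.

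Arsenite gave the highest level of all 3 NR4A genes and of IER2. NR4A1, the receptor best known from T cell selection and stress-induced apoptosis, stood at 1304, 1489 and 1253 CPM (counts per 1000000, on the TMM scale shared by all libraries) in arsenite replicates 1 to 3 and at 141.4, 71.5 and 58.6 CPM in the PBS replicates. The groups were far apart, and the fitted difference was 3.80 on the log2 scale (SE 0.22, n = 3 per group), a 13.9-fold higher level in arsenite. NR4A2, known for its role in midbrain dopamine neurons, reached 708, 827 and 768 CPM against 158, 95.4 and 138 CPM, a log2 difference of 2.46 (SE 0.18) and a 5.49-fold higher level. Its arsenite libraries lay close together, with an SD of 59.6 CPM around a mean of 768 CPM.

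NR4A3, the third receptor, had the fewest reads of the family. It stood at 58.4, 176 and 80.2 CPM in arsenite and at 26.8, 7.95 and 0 CPM in PBS, where all 3 libraries together held 12 counts. The groups did not overlap, yet replicate 2 of arsenite was 3.01 times as high as replicate 1. The log2 difference was 3.01 (SE 0.48), and it ranged with the library left out from 2.25 without PBS replicate 3 to 5.65 without PBS replicate 1, the PBS library that held most of its reads. IER2, which encodes a nuclear protein, stood at 1492, 1541 and 1298 CPM in arsenite and at 275, 429 and 316 CPM in PBS. Its log2 difference was 2.18 (SE 0.11), a 4.52-fold higher level, and it had the smallest SE of the 5 measured genes.

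IER5, which encodes a protein that acts with the phosphatase PP2A on the heat shock factor HSF1, differed from the other 4. It stood at 22.8, 38.5 and 39.6 CPM in arsenite and at 36.6, 111 and 53.5 CPM in PBS. The groups overlapped, the PBS libraries differed among themselves by 3.04-fold, and the log2 difference was -0.61 (SE 0.30). It was -0.32 without PBS replicate 2, the shallowest library, which held the high value, and -0.92 without PBS replicate 1, where it passed the threshold. IER5 was thus the single measured member without a call higher in arsenite.

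Of the 5 members that could be tested, 4 were called higher in arsenite by edgeR's quasi-likelihood test (Benjamini-Hochberg adjusted p under 0.05), where 15.4% of the 7558 genes tested were called higher. The 3 arsenite libraries lay above all PBS libraries for the same 4 members, as they did for 21% of the genes tested. Nothing is read from these counts, because the members were chosen with the contrast known. NR4A3, with 213 counts in arsenite and 12 in PBS, also passed the filter mainly through arsenite, the group in which it was called higher. The median log2 difference of the 5 was 2.46, against -0.01 over all genes tested. More RNA of a gene and more IGF2BP3 on the same RNA cannot be told apart here, since no RNA input was measured in these libraries.

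**Figure D1:**
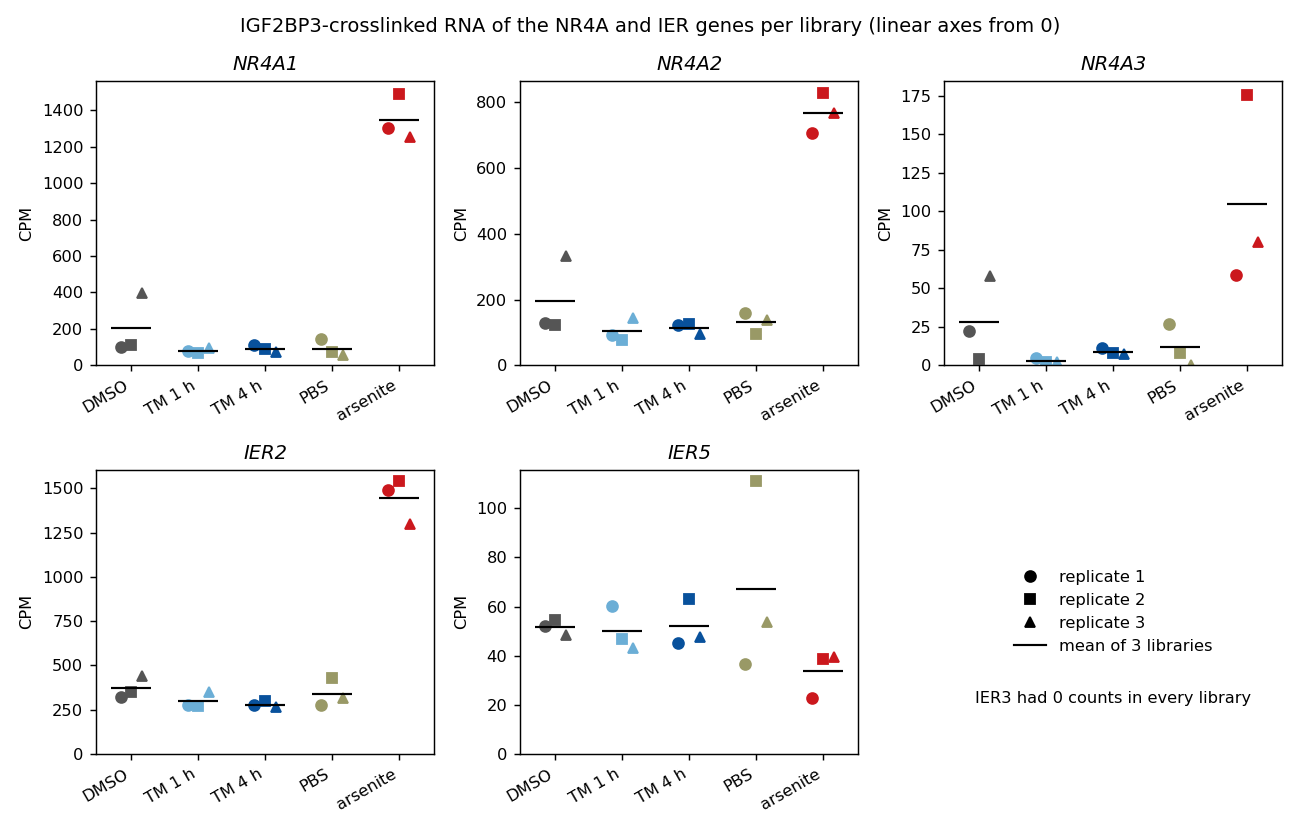
CPM of NR4A1, NR4A2, NR4A3, IER2 and IER5 in each anti-IGF2BP3 library (y axes linear from 0), with the condition on the x axis, the marker shape for the replicate and a line at the mean of 3 libraries. Arsenite stands highest for all but IER5, and DMSO replicate 3 (triangle) stands above the other DMSO libraries for the 3 NR4A genes.

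The make-up of the NR4A family also differed in arsenite. NR4A1 took 60.8% ± 1.90 (SD, n = 3) of all NR4A counts in arsenite and 38.0% ± 7.16 in PBS. The arsenite libraries ranged from 59.6% to 63.0%, above the highest library of any other condition, DMSO at 50.3%. NR4A2 made up most of the rest, with 34.6% in arsenite and 57.7% in PBS.

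The level in DMSO depended on the replicate. NR4A1 stood at 98.8, 113 and 394 CPM in DMSO replicates 1, 2 and 3, NR4A2 at 129, 123 and 332 CPM, and NR4A3 at 22.0, 4.27 and 58.0 CPM. Replicate 3 was thus high for all 3 receptors, at 3.49, 2.57 and 2.64 times the higher of the other 2 libraries. IER2 stood at 321, 348 and 443 CPM, 1.27 times as high in replicate 3, and IER5 at 52.1, 54.4 and 48.3 CPM, with replicate 3 lowest. A level at least 2-fold above both other replicates was found in DMSO replicate 3 for 3 of the 5 members and for 0.238% of the 7558 genes, or 18 genes in all. The members were chosen with these counts known, so nothing is read from the 3 of 5.

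Replicate 3 of the TM groups, which shares its library set with DMSO replicate 3, was not high in this way. NR4A1 stood at 93.0 CPM in TM 1 h replicate 3 and 72.1 CPM in TM 4 h replicate 3, which is 1.18 and 0.642 times the higher of the other replicates. None of the 5 members was 2-fold above the other replicates in replicate 3 of TM 1 h, TM 4 h, PBS or arsenite. A property of the library set and one of the single DMSO library were not tested against each other further.

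The calls of lower levels under TM depended on that library. At 1 h of TM, NR4A1 stood at 78.7, 66.6 and 93.0 CPM, NR4A2 at 92.6, 77.7 and 142.9 CPM, and NR4A3 at 4.63, 2.22 and 1.92 CPM, with 4 NR4A3 counts in all 3 libraries together. Only NR4A1 lay below every DMSO library, by a small gap. The log2 differences from DMSO were -1.48 (SE 0.23) for NR4A1, -0.88 (SE 0.19) for NR4A2 and -3.67 (SE 0.70) for NR4A3. Without DMSO replicate 3 they were -0.37 (SE 0.19), -0.09 (SE 0.18) and -1.91 (SE 0.85), and none was called. With replicates 1 and 2 alone, which are 1 library set, they were -0.62 (SE 0.25), -0.59 (SE 0.23) and -1.57 (SE 1.02), also without a call. In the other library set, 1 library against 1, they were -2.08, -1.21 and -4.92.

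At 4 h of TM, NR4A1 stood at 112, 91.2 and 72.1 CPM, NR4A2 at 121, 126 and 95.3 CPM, and NR4A3 at 11.2, 8.05 and 7.09 CPM. All 3 groups overlapped DMSO. The log2 differences were -1.45 (SE 0.21), -0.97 (SE 0.17) and -1.97 (SE 0.46), and without DMSO replicate 3 they were -0.36 (SE 0.18), -0.19 (SE 0.17) and -0.22 (SE 0.60). Again none was called without that library. With replicates 1 and 2 alone they were -0.13 (SE 0.20), -0.01 (SE 0.18) and -0.02 (SE 0.67). In the other library set, a comparison of 1 library with 1, NR4A1 in TM 4 h replicate 3 was -2.45 on the log2 scale from DMSO replicate 3, NR4A2 -1.80 and NR4A3 -3.03.

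IER2 was also slightly lower at 4 h of TM. It stood at 278, 273 and 350 CPM at 1 h and at 274, 296 and 263 CPM at 4 h, against 321 to 443 CPM in DMSO. The 4 h libraries all lay below the DMSO libraries, with a log2 difference of -0.47 (SE 0.10). That call was lost without DMSO replicate 3, where the difference was -0.30 (SE 0.11). At 1 h the difference was -0.28 (SE 0.11) and was not called. IER5 did not differ by more than its spread at either time, with log2 differences of -0.14 (SE 0.24) at 1 h and 0.01 (SE 0.21) at 4 h.

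In these fits 3 of 5 members, the NR4A genes, were called lower at 1 h, where 0.516% of all genes tested were called lower, and 4 of 5, the NR4A genes and IER2, at 4 h, where 2.71% were. A complete separation below DMSO was found for 1 of 5 members at 1 h (NR4A1, background 7.78%) and for 1 of 5 at 4 h (IER2, background 10.5%). As the members were chosen with these contrasts known, nothing is read from the counts. NR4A3 also passed the filter only in the fit of all 15 libraries, not in a fit of the DMSO and TM libraries alone. Its TM calls therefore rest on a joint fit with the PBS and arsenite libraries. Both TM times share the DMSO libraries, so their agreement is not independent. DESeq2's Wald test called none of the members lower at either time, with no adjusted p for NR4A3 and IER5 at 1 h. Its log2 differences at 1 h were -1.35 (SE 0.52) for NR4A1, -0.88 (SE 0.39) for NR4A2 and -3.47 (SE 1.22) for NR4A3, with wider errors than those of edgeR. Between TM 4 h and TM 1 h, which share no library, 0 of 5 members were called, where 13.4% of all genes tested were called in either direction. NR4A3 stood at 7.09 to 11.2 CPM at 4 h and 1.92 to 4.63 CPM at 1 h without overlap, a log2 difference of 1.70 (SE 0.94) that rests on 22 and 4 counts.

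**Figure D2:**
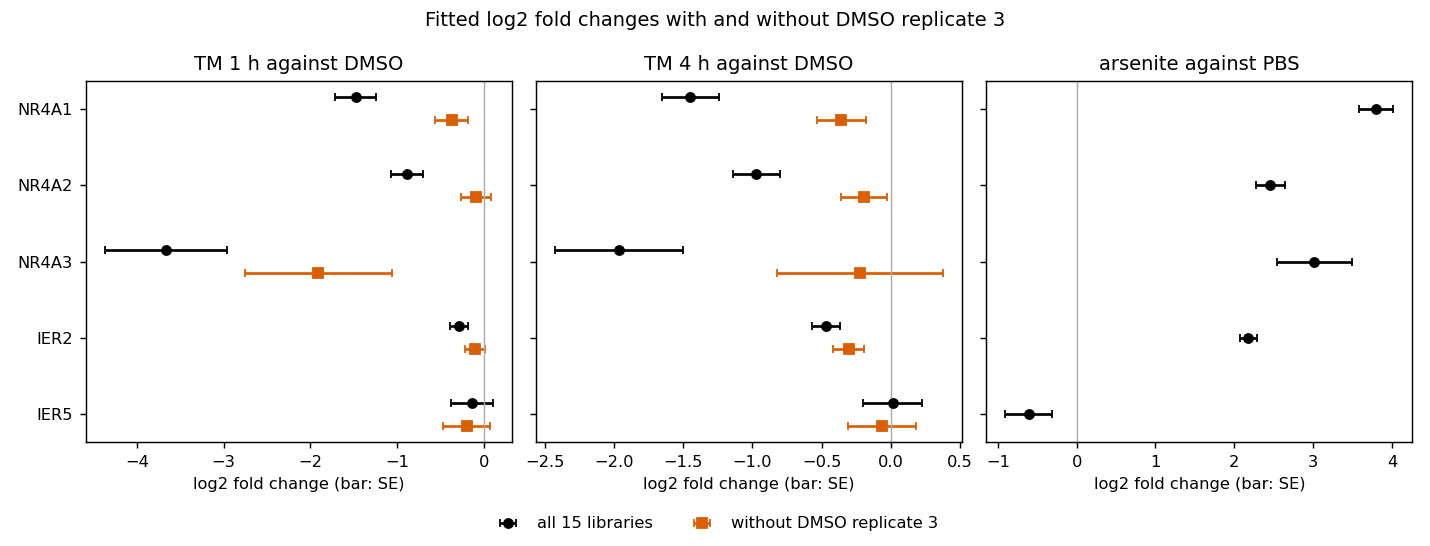
Fitted log2 fold changes (x axis, bars show the SE) of 5 genes under TM 1 h and TM 4 h against DMSO and under arsenite against PBS, from all 15 libraries (black) and without DMSO replicate 3 (orange). The NR4A values under TM move towards 0 without that library, from -1.45 to -0.36 for NR4A1 at 4 h.

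The arsenite difference minus the TM 4 h difference was positive for the NR4A genes and IER2. It came to 5.25 on the log2 scale (SE 0.30) for NR4A1, 3.43 (SE 0.25) for NR4A2, 4.98 (SE 0.67) for NR4A3 and 2.65 (SE 0.15) for IER2. Without DMSO replicate 3 it was 4.18, 2.67, 3.26 and 2.50, and all 4 were still called. For IER5 it was -0.62 (SE 0.36) and was not called. The 4 calls of 5 stand beside 8.67% of all genes tested that were called in this direction. Nothing is read from this count either, since the members were chosen with their levels in these conditions known.

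Ordered by mean level, arsenite came first and DMSO second for NR4A1, NR4A2, NR4A3 and IER2. On the TMM scale the arsenite libraries did not overlap the DMSO libraries for any of the 4. For NR4A3 the gap was very small, with 58.37 CPM in arsenite replicate 1 (23 counts) and 57.95 CPM in DMSO replicate 3. In CPM of the plain library total these libraries stood at 55.55 and 55.93, so for NR4A3 the groups overlapped. The step from arsenite to DMSO also compares libraries of different library sets. Below that step, neighbours in the order overlapped for NR4A1, NR4A2 and IER2, while the DMSO libraries, not neighbours of these groups, lay above TM 1 h for NR4A1 and above TM 4 h for IER2 without overlap. For NR4A3 the lowest pair, TM 4 h above TM 1 h, did not overlap. For IER5 the order ran PBS, TM 4 h, DMSO, TM 1 h and arsenite, and the arsenite libraries, at 22.8 to 39.6 CPM, lay below the TM 1 h libraries at 43.2 to 60.2 CPM. They also lay below the DMSO libraries at 48.3 to 54.4 CPM and the TM 4 h libraries at 45.0 to 63.0 CPM. Those groups are of other library sets, and the arsenite libraries overlapped PBS, their own control.

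Across the 15 libraries, log2(CPM + 1) of NR4A1 and NR4A2 correlated at r = 0.98, and NR4A1 and IER2 at r = 0.94. These are descriptions, since 3 arsenite libraries carry most of the range. Over the 8 DMSO and TM libraries other than DMSO replicate 3, r was 0.81 for NR4A1 with NR4A2, 0.59 for NR4A1 with IER2 and 0.40 for NR4A1 with NR4A3. IER5 had negative r with all 4 over the 15 libraries, from -0.63 with NR4A1 to -0.44 with NR4A3. In a search of the 3338 rows averaging 50 counts or more, the row most like NR4A1 (r = 0.98) and IER2 (r = 0.98) was ENSG00000179388_9, and that most like NR4A2 (r = 0.98) was ENSG00000125740_14. The tables used here do not pair these identifiers with gene names.

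IER3, which encodes a short-lived regulator of apoptosis and ERK signalling, had 0 counts in all 20 libraries and no cluster. In the 15 anti-IGF2BP3 libraries together, 0 of 10269450 counts allows a level of up to 0.292 CPM (3 counts of the total), for counting error only, and single libraries allow up to 1.91 to 23.0 CPM. The gene lies on chromosome 6 at 30743199 to 30744547 (GRCh38.p14), and its surroundings were nearly empty too. Within 1 Mb on either side, 2 of 75 protein-coding RefSeq genes had a cluster in any anti-IGF2BP3 library, against 41.0% of all 20037 such genes. That window held 12 clusters, while the median window of this kind around a gene held 430, and 2.35% of genes had as few. TUBB, which encodes a tubulin common to most cells and lies 17.8 kb away, had 0 clusters. The cause was not tested, and the 0 is therefore given as a listed value and not as a lack of IER3 RNA.

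Control IgG libraries set a limit on what these levels show. IgG counts of NR4A1 were 4, 0, 3, 2 and 5 in DMSO, TM 1 h, TM 4 h, PBS and arsenite. In CPM of the plain library total, NR4A1 in arsenite averaged 1292 with the IGF2BP3 antibody and 534 with IgG (exact Poisson 95% interval 173 to 1246), and this was the single member and condition in which the antibody mean lay above the IgG interval. For IER2 in arsenite the antibody mean was 1383 CPM and the IgG value 854 (369 to 1683) from 8 counts. NR4A2 in TM 4 h, at 112 CPM, lay below the IgG interval of 140.7 to 1011. For every other pair of a measured gene and a condition, that of IER2 in arsenite included, the mean lay within the interval. The intervals cover counting error only, and with IgG totals this low they are wide. No member had a cluster in any IgG library.

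The cluster lists show where on each gene the reads lay. NR4A1 spans chr12:52022832-52059503 in RefSeq, and all its 71 clusters, found in 12 libraries, lay between 31.5 and 36.6 kb from the gene start, in the last part of a 36.7 kb gene. Most reads fell in the 1000 bases before the gene end, 64.5% in arsenite and 69.3% in DMSO (pooled reads). Replicate 3 held 447 of the 514 DMSO reads, and 66.4% of its reads fell there, against 100% and 84.9% in DMSO replicates 1 and 2. In TM 4 h 95.3% of 107 reads and in TM 1 h all 53 reads lay there. A 754-base region starting 31503 bases from the gene start held 570 reads in the 3 arsenite libraries and 124 in DMSO, but 5 in PBS, 5 in TM 4 h and 0 in TM 1 h. DMSO replicate 2 held 53 NR4A1 reads, 45 of them in the last 1000 bases, so most of the 124 came from DMSO replicate 3. Libraries with few NR4A1 reads can miss such a region, since each list was called on its own library, so a shift of binding along the gene cannot be told apart from depth.

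NR4A2 (chr2:156324437-156332721, minus strand) had 96 clusters in 13 libraries. They fell mainly into a 745-base region that ended 762 bases before the gene end, with 62.1% of its reads and clusters in 12 libraries, and a 393-base region beginning 2536 bases from the gene start, with 24.5% of its reads. IER2 (chr19:13150411-13154911, plus strand) had clusters in all 15 libraries, 61 in all. A single region of 702 bases that ended 15 bases before the gene end held 99.0% of its 5086 cluster reads. In the 12 libraries other than arsenite all IER2 cluster reads lay in the last 1000 bases, and in arsenite 99.2% did.

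NR4A3 (chr9:99821885-99866891, plus strand) had 13 clusters with 95 reads, in DMSO replicate 3 and in arsenite replicates 2 and 3 alone. Of these, 24 reads in a region of 84 bases lay 6472 bases from the gene start and came from arsenite, while the 2 regions with clusters in all 3 of those libraries lay near the end. IER5 (chr1:181088700-181092900, plus strand) had 7 clusters with 40 reads in 4 libraries, all in the middle of the gene. NR4A1 cluster numbers followed the same libraries as the counts, with 10, 17 and 12 in arsenite and 14 in DMSO replicate 3 against 0 to 5 in every other library.

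**Figure D3:**
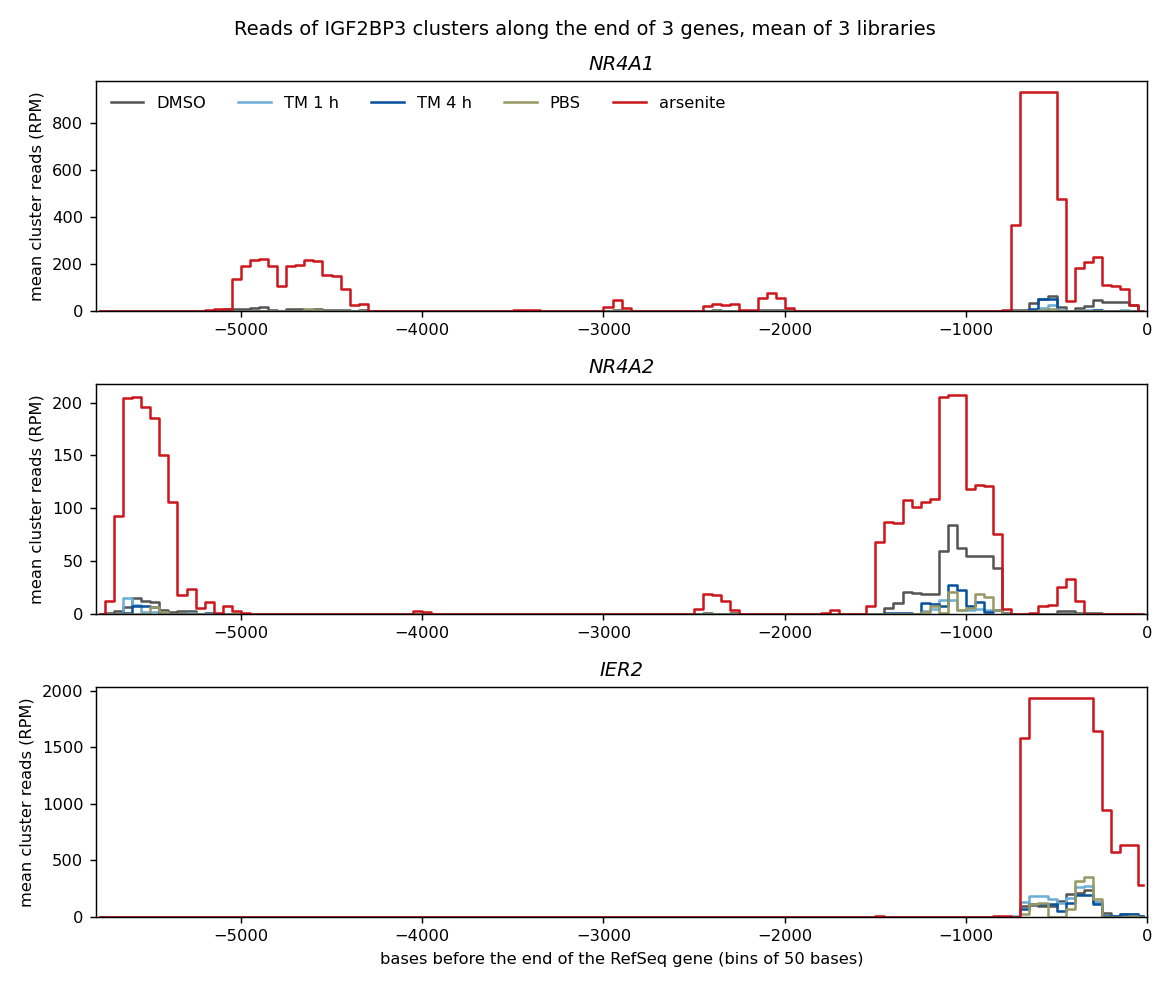
Cluster reads over each base (y axis, in RPM, cluster reads per 1000000 cluster reads of the library, mean of 3 libraries, each cluster's reads counted over all its bases) against bases before the end of NR4A1, NR4A2 and IER2, in bins of 50 bases, coloured by condition. The IER2 reads sit in 1 block at the gene end, while NR4A1 and NR4A2 each have a further block several kilobases before it that is highest in arsenite.

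The share of T-to-C conversions was also read at these clusters. Summed over genes, it is weighted by each gene's reads, on which the genes were chosen, so the summed share is a description without a test. Among the conversion and non-conversion events summed over the clusters of the 5 genes, 9.67%, 9.62% and 9.45% were conversions in arsenite replicates 1 to 3, and 8.42%, 7.95% and 7.42% in PBS. The groups did not overlap, and the arsenite mean was higher by 1.65 percentage points (SE 0.30, n = 3 per group). In TM 1 h the shares were 7.66%, 6.81% and 7.07% against 8.41%, 8.02% and 9.21% in DMSO, a difference of -1.37 points (SE 0.43). In TM 4 h the groups overlapped, at 7.26% to 8.87%, with a difference of -0.47 points (SE 0.58).

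The share of a single gene does not carry that weighting. IER2 alone, the gene with clusters everywhere, had a share of 7.32% ± 0.18 (SD, n = 3) in arsenite and 7.38% ± 0.59 in PBS, a difference of -0.06 points (SE 0.36, two-sided exact permutation p = 0.9, adjusted over 3 comparisons p = 0.9). The smallest p that 3 against 3 libraries allow is 0.1. NR4A1 had a share of 11.8% to 12.6% in the arsenite libraries, where it held 2492 cluster reads against 14 in PBS. Those PBS reads, all in replicate 1, had a share of 11.8% from 9 conversion events, within the arsenite range. NR4A2 had 10.6% to 11.5% in arsenite, and 14.6% and 11.3% in PBS replicates 1 and 3, from 12 and 16 conversion events. Neither gene thus stood clearly higher in arsenite, though the PBS events were few. IER2 overlapped its control at both TM times too (differences of -0.61 points, SE 0.41, and 0.26 points, SE 0.51). With each gene weighted alike, the arsenite difference was 0.63 points and the TM 1 h difference -0.81 points. Only genes with clusters in a library entered its mean, and PBS replicate 2 had clusters of IER2 alone. The genes averaged therefore differed between libraries, and these differences are not free of the make-up. Over all clusters of the libraries, arsenite was 0.68 points higher than PBS (SE 0.08, exact permutation p = 0.1, adjusted p = 0.3), also without overlap.

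**Figure D4:**
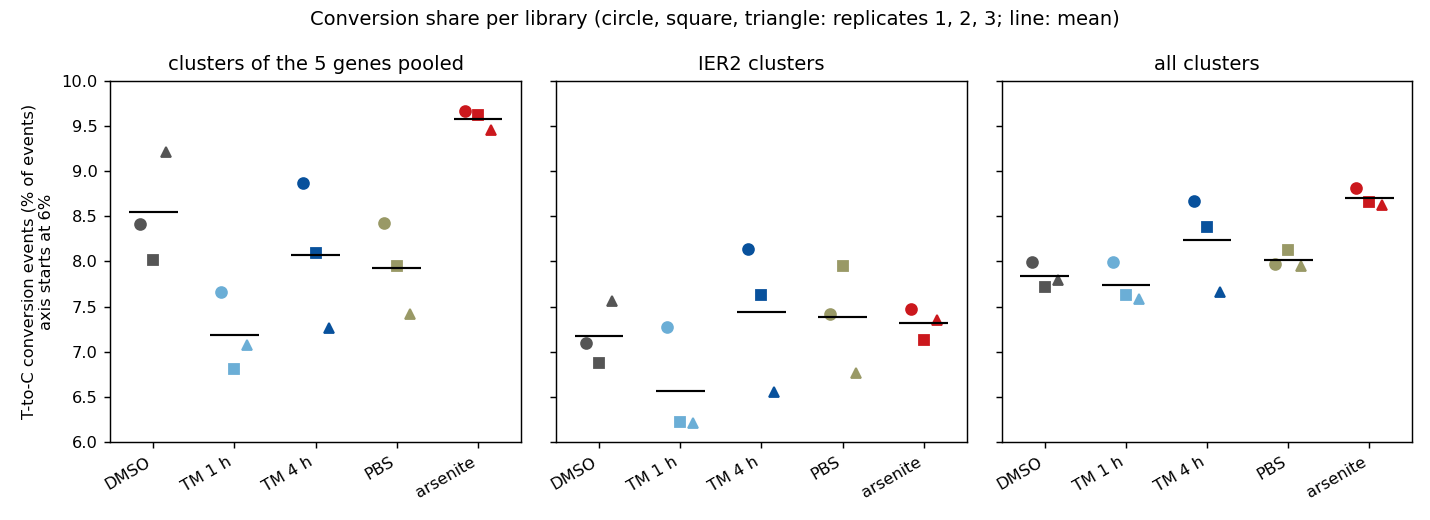
Percentage of conversion events among all events (y axis from 6%) per anti-IGF2BP3 library and condition, for the clusters of NR4A1, NR4A2, NR4A3, IER2 and IER5 pooled, for IER2 alone and for all clusters. The arsenite libraries stand above PBS in the pooled panel (9.45% to 9.67%) and among all clusters, but overlap PBS for IER2.

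Other immediate-early genes were followed through their clusters, which can be placed on RefSeq genes by position. Of 46 such genes, 33 had at least 30 cluster reads over the arsenite and PBS libraries. Reads were scaled to RPM, cluster reads per 1000000 cluster reads of the library. In arsenite 22 of the 33 had a higher RPM in all 3 libraries than in any PBS library and 1 had a lower one, against 23.2% and 9.74% of the 4208 genes with as many reads. The median log2 difference was 2.08 for the list and 0.60 for all these genes. Arsenite libraries held 15648 to 45613 clusters and PBS libraries 3579 to 16430, so fewer genes reach the calling limit in PBS. Arsenite replicate 1 and PBS replicates 1 and 3 had similar numbers, and among these alone 23 of the 33 were higher and 3 lower in arsenite, against 33.7% and 36.9% of all genes. Some of the 33, FOS and FOSB among them, had no PBS reads and so passed the limit of 30 reads through arsenite alone. The comparison at similar numbers kept the same 33 and 4208 genes, so it does not remove this selection, and the counts are a description.

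By the largest log2 difference, the list was led by FOS and FOSB, subunits of the AP-1 factor, and EGR3, a zinc finger transcription factor. FOS had 3003, 2841 and 2071 RPM in arsenite and no cluster in PBS. Its arsenite clusters held 4526 covered bases at 76.7 reads per 100 bases. Covered bases are cluster widths summed over the 3 libraries of a group, so a base can count more than once. FOSB had 1724, 1954 and 957 RPM and EGR3 1577, 2011 and 1035 RPM, also with no cluster in PBS. All 3 genes had clusters in DMSO replicate 3, at 34.8, 84.3 and 47.7 RPM. The 1 gene lower in arsenite was TRIB1, a pseudokinase, at 1334 to 1396 RPM against 1769 to 2155 in PBS. On the same measure NR4A1 had 1490 to 2096 RPM in arsenite, with 4797 covered bases at 51.9 reads per 100 bases. In PBS it had 57.3 RPM or no cluster, with 88 covered bases at 15.9 reads per 100 bases. Reads per 100 bases are not scaled to library depth, which differed between the groups, so arsenite and PBS are not compared on them.

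**Figure D5:**
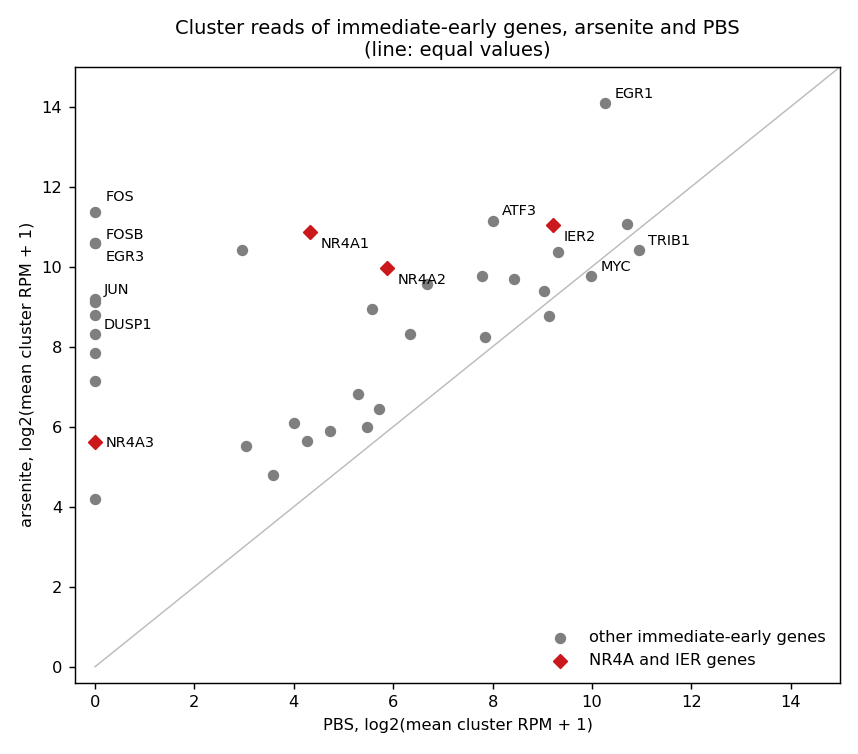
Mean cluster RPM (log2 of the value plus 1) in arsenite (y axis) and PBS (x axis), each point 1 gene with at least 30 reads, grey for other immediate-early genes and red for NR4A and IER genes, with a line at equal values. Genes at 0 on the x axis, such as FOS, had no cluster in PBS, and TRIB1 lies below the line.

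Under TM most genes of the list overlapped DMSO. At 1 h, 7 of 30 genes with enough reads were lower than DMSO in all 3 libraries and 1 was higher, against 5.92% and 2.68% of 5184 genes. At 4 h, 6 of 33 were lower and 1 was higher, against 4.4% and 5.89% of 5755 genes. Without DMSO replicate 3 the counts were 7 lower and 2 higher at 1 h, against 8.62% and 3.97% of all these genes, and 6 lower and 1 higher at 4 h, against 7.04% and 9.77%. With replicates 1 and 2 alone, which are 1 library set, 9 were lower and 4 higher at 1 h, against 21.1% and 7.79%. At 4 h, 8 were lower and 3 higher, against 12.5% and 12.5%. TM 1 h libraries held 7913 to 43662 clusters and DMSO libraries 14399 to 51825, and the part of depth in the 1 h counts was not tested. The leading genes were KLF10, DUSP5 and EGR1 at 1 h and TRIB1, KLF6 and DUSP5 at 4 h. DUSP5, a phosphatase of ERK, had 463, 355 and 775 RPM in DMSO, 137, 185 and 278 at 1 h and 242, 238 and 193 at 4 h. TRIB1 had 1790, 1312 and 2234 in DMSO and 681, 478 and 410 at 4 h.

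DMSO replicate 3 stood apart in this list as well. Of 30 genes with at least 30 reads in DMSO, 9 had at least 2-fold more RPM in replicate 3 than in both others, FOS, FOSB, FOSL2, EGR3, DUSP4, KLF4, MAFF, CCN1 and CCN2, against 6.56% of 4682 genes. For 4 of the 9, FOS, MAFF, CCN1 and CCN2, replicates 1 and 2 had no cluster. DMSO replicate 3 was the deepest DMSO library, with 51825 clusters against 14399 and 40065, and the part of depth in this count was not tested.

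Among relatives and partners, IER5L had clusters in 4 libraries with at most 14.5 RPM. RXRA, a partner receptor with which NR4A1 and NR4A2 can pair, had 20.6 to 34.99 RPM in arsenite, 33.2 and 23.8 RPM in DMSO replicates 2 and 3, 15.9 to 23.6 RPM in replicates 2 and 3 of the TM groups, and no cluster in PBS or in replicate 1 of DMSO and TM. RXRB and RXRG had no cluster in any anti-IGF2BP3 library.

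The 250 bases before the RefSeq starts of NR4A3, IER2 and IER5 (GRCh38.p14) are shown, 5′ to 3′. Capitals mark TGACG on either strand (CGTCA on the printed one), the core of the site bound by CREB and ATF factors.
NR4A3: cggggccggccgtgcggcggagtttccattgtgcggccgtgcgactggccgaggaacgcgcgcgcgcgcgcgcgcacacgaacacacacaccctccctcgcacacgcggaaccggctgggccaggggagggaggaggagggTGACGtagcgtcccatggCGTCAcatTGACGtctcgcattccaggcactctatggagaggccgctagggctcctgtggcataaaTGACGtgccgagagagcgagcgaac
IER2: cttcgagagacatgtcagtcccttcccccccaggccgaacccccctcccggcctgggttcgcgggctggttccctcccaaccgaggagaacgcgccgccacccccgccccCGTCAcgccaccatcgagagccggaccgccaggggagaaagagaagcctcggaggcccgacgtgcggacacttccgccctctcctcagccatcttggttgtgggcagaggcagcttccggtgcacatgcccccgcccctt
IER5: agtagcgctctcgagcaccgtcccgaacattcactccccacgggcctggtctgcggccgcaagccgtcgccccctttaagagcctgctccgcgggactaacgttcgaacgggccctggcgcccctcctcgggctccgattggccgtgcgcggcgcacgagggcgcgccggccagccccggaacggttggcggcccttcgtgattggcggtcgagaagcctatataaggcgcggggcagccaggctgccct
They lie on the plus strand at chr9:99821635-99821884, chr19:13150161-13150410 and chr1:181088450-181088699. TGACG matched 4 times before NR4A3, once before IER2 and not before IER5, and at least 1 match stood in 21.2% of 35116 such windows of all promoters. Before neither of the 2 NR4A1 starts, which lie 14.9 kb apart, was there a match. The full site TGACGTCA stood in none of these 5 windows, on either strand, and in 1.65% of all. The AP-1 site TGANTCA stood in none of the 5 and in 6.57% of all. A CArG box, the site of serum response factor, stood in none of the 5 and in 1.16% of all. NR4A1, without a TGACG match, had the largest arsenite log2 difference of the members, 3.80, and NR4A2 had no entry. A match is a description of these letters alone, and its relation to the arsenite levels was not tested.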

How the data were processed

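PAR-CLIP libraries of HCT116 cells were grouped by the treatment and antibody in the labels. The authors deposited whole-number counts per gene in 1 table and 1 list of clusters per library with read counts and conversion event counts. The submitters' processing notes name bcl2fastq 2.20.0.422, UMI-tools 1.1.1, Trimmomatic 0.30, Bowtie 0.12.7, featureCounts 2.0.1 and the builds GRCh38.p13 and hg38. The cluster caller is not given in the sources used here. The IgG cluster lists of PBS and arsenite carry names that are the reverse of their samples, and the attachment was followed.

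All 15 anti-IGF2BP3 libraries entered 1 fit in edgeR 4.0.16 (R 4.3.3) (filterByExpr, then TMM scaling). The quasi-likelihood test was two-sided, and Benjamini-Hochberg adjusted p-values were held against 0.05. NR4A3 passed the filter in this fit but not in a fit of the DMSO and TM libraries alone, and IER3 did not pass. All 15 pairs of libraries within a group differed beyond sampling noise (chi-square, genes expected at 5 counts or more, largest p = 7e-23). Same-numbered libraries did not deviate together. Clusters were given to the 1 protein-coding RefSeq gene holding their midpoint, by strand where known. All 1157 clusters inside RefSeq promoter windows matched their letters exactly. Cluster log2 differences add 1 RPM. No promoter entry was used for NR4A2 and IER3. The log2(CPM + 1) scale was used for correlations.

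The members and lists were chosen with earlier results of these data known. Named immediate-early genes are the 3 with the largest log2 difference among those without overlap and with at least 50 reads per library on average. The 9 genes high in DMSO replicate 3 and TRIB1 in arsenite were named after their values were seen. Alternatives were DESeq2 1.42.0, other scalings, no filter, the replicate number or library set as a block, separate fits and each library left out. Statistics were tested on simulated data.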

Additional observations from a re-analysis of the deposited data

Results flagged for a closer look

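The arsenite and TM 4 h differences were in opposite directions for 4 members, and the difference between them was called. The members were chosen with these levels known, so the calls are a description. It was 5.25 on the log2 scale for NR4A1, 3.43 for NR4A2, 4.98 for NR4A3 and 2.65 for IER2, from 3 libraries per group. The TM calls in it depend on DMSO replicate 3, without which the TM 4 h difference was -0.36, -0.19, -0.22 and -0.30 in the same order. With replicates 1 and 2 of the DMSO and TM groups alone the values were 3.92, 2.46, 3.02 and 2.41.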

How the results depend on the processing

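The number of genes called was 52 for TM 1 h, 447 for TM 4 h, 1011 for TM 4 h against TM 1 h, 2342 for arsenite and 1406 for the difference between the stresses. DESeq2 called 28 and 259 for the 2 TM times. TM replicates 1 and 2 with DMSO replicates 1 and 2 gave 15, 149 and 501 for the 3 TM comparisons. Leaving out each library gave 16 (without DMSO replicate 3) to 54 genes at TM 1 h, 183 (without DMSO replicate 3) to 457 at TM 4 h, 540 (without TM 1 h replicate 3) to 909 between the TM times, 1676 to 2236 for arsenite and 1045 to 1364 for the difference; without TM 1 h replicate 2 it was 22 at 1 h. Without the filter 61.7% of arsenite calls and 59.8% of those for the difference were higher, against 49.8% and 46.6% with it. With TM replicates 1 and 2 only, 40.0% of calls at 1 h and 68.5% at 4 h were higher, against 25.0% and 54.1%. DESeq2 had 39.3% higher at 1 h.

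The replicate block, added although same-numbered libraries did not deviate together (r of -0.0547 to 0.0246), gave 50, 394, 925, 2205 and 1273 genes. Under it IER5 in arsenite, at -0.81, was called, and no other call on a member changed. The summed conversion difference in arsenite was 2.02 points with clusters of at least 10 reads and 0.63 with genes weighted alike, and that of TM 1 h was -0.81 with genes weighted alike. That weighting took only the genes with clusters in each library, which differed between libraries. Leaving out each library gave 1.39 to 1.90 points in arsenite, -1.63 to -1.03 at TM 1 h and -0.87 to -0.07 at TM 4 h. Of 372 member values under alternatives, 320 moved by less than the spread, 52 moved by more and 0 of the called ones reversed. Calls on the NR4A genes also depended on single TM libraries at 1 h, since NR4A2 was not called without TM 1 h replicate 2 (-0.70) and NR4A3 not without TM 1 h replicate 3 (-3.33). Few IgG reads, and the few reads of NR4A3 and IER5, limit what depth can show here.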
